A study of Rattus norvegicus with 44 samples.

Results

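Kidney transcripts of obese ZSF1 rats given Enalapril together with Compound 1 (the combination) were compared with those of rats given the vehicle (Vehicle). The comparison takes 23 of the 44 animals of the series, 12 with the combination and 11 with Vehicle, and every one of the 13482 of 32883 listed entries with an FPKM above 1 in at least 9 of all 44 animals. All animals were male ZSF-1OB rats, the obese form of a hybrid strain that carries a different loss-of-function allele of the leptin receptor from each parent, and all carried a telemetry implant. The drugs were given in feed, and Vehicle animals received none. Treatment began at 22 weeks of age and lasted 6 months. Daily doses in the combination group were 3 mg/kg/day of Enalapril and 1 mg/kg/day of Compound 1. Of the remaining animals, 9 received Enalapril alone at 3 mg/kg/day and 12 received Compound 1 alone at 1 and later 3 mg/kg/day. Each library came from a piece of the right kidney of 1 animal, and FPKM count sequenced fragments relative to transcript length and library size.

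Enalapril blocks angiotensin-converting enzyme, which turns angiotensin I into angiotensin II, a peptide that narrows vessels and promotes aldosterone release. Compound 1 acts on soluble guanylate cyclase, the nitric oxide receptor that makes cGMP and relaxes vascular smooth muscle. Obese ZSF1 rats become hypertensive and diabetic and lose renal function, with protein in the urine, tubular injury, inflammation and fibrosis.

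Markers of podocytes, proximal tubule, thick ascending limb, distal convoluted tubule and collecting duct were present in all 23 libraries, except Pvalb, a calcium-binding protein of the early distal convoluted tubule, which was listed at 0 in 9 of 11 Vehicle and 11 of 12 combination animals. FPKM carry no read totals, so the depth is unknown, and the depth relative to the median library, read from ratios of low values, ran from 0.622 to 1.33 in Vehicle and from 0.823 to 1.37 with the combination. Mitochondrially encoded transcripts took 27.5 ± 5.38% (SD, n = 11) of FPKM in Vehicle and 32.1 ± 4.84% (n = 12) with the combination. Vehicle animal 1004 stood apart, with the lowest correlation to its own group (Pearson r = 0.945 across genes, genes not being independent replicates), a mitochondrial share of 36.7% and an Atp6v1b1 level of 10.1 FPKM against a Vehicle mean of 38.9. Among the Compound 1 animals, 3011 lay outside the rest of its group. Its Havcr1 level of 17.9 FPKM lay within the combination's range and below the 27.1 to 49.1 FPKM of the other 11. Its Spp1 level of 2159 FPKM lay below their 2905 to 6286 FPKM. Whether its label is right was not tested. The values given for Compound 1 and for the differences from it therefore include those without 3011.

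Far more kidney transcripts were lower than higher with the combination, as the values were deposited. Genes were called where limma gave an adjusted p below 0.05 and the fold change was over 1.5 or below 0.66. In total 134 genes rose, 0.994% of those tested, and 861 fell, 6.39% of those tested. Fold changes exceeded 2 for 23 of the higher genes and 82 of the lower ones. The levels of the 12 and the 11 animals did not overlap for 46 higher genes (0.341%) and 89 lower genes (0.66%). The median of all log2 fold changes was -0.18, and 77.6% of the tested genes had a negative one, so the whole distribution was shifted. After rescaling by the median of ratios, which brought that median to -0.00, 349 genes rose (2.59%) and 298 fell (2.21%). All 134 genes that rose as deposited and 298 of the 861 that fell were called with both scalings, and no gene was called in opposite directions by the 2 scalings. Rescaling raised the combination relative to Vehicle, with mean divisors of 1.08 in Vehicle and 0.959 with the combination. Higher genes could therefore hardly lose their calls and lower genes could hardly turn higher, so both outcomes were largely fixed by that shift. In limma, 7205 genes had an unadjusted p under 0.05. Without Vehicle animals 1003 and 1004, 66 genes rose. In bulk kidney, fewer cells of a type and less RNA per cell cannot be told apart.

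**Figure D1:**
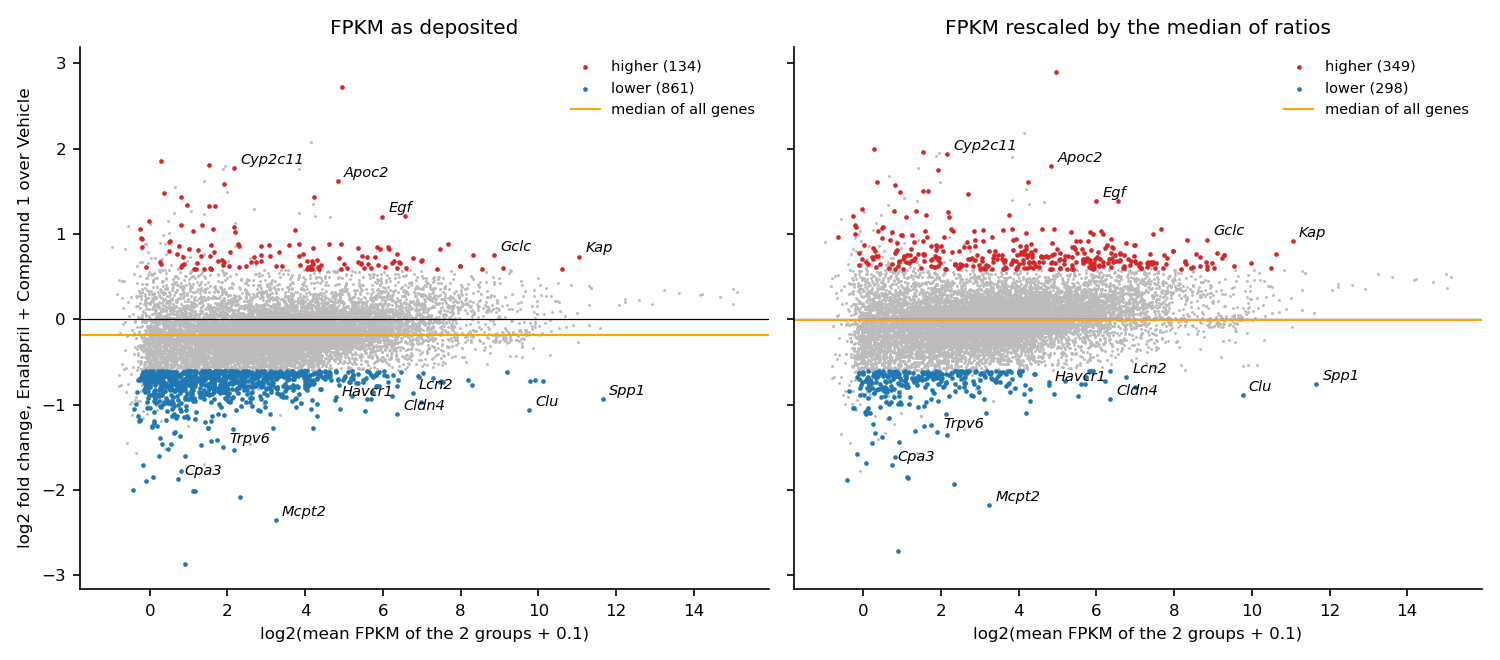
Log2 fold change of the combination over Vehicle (y axis) against the log2 of the mean FPKM of both groups plus 0.1 (x axis) for the 13482 tested genes, as deposited (left) and rescaled (right). Red and blue points are the called genes, grey points are not called, and the orange line marks the median of all genes, at -0.18 on the left and -0.00 on the right; Mcpt2 lies near the bottom of both panels and Cyp2c11 and Apoc2 near the top.

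Genes that make or remove angiotensin and related peptides moved in both directions. Mme, which encodes neprilysin, a brush border peptidase that forms angiotensin 1-7, went from 30.3 ± 11.1 FPKM (n = 11) to 50.9 ± 8.21 FPKM (n = 12), a log2 fold change of 0.84 (SE 0.19, limma adjusted p = 0.0011). Cma1, a mast cell chymase listed with these genes, fell with Kng1, the precursor of bradykinin, and Prcp, a carboxypeptidase that cleaves angiotensin peptides. Kng1 went from 12.2 ± 2.23 to 7.87 ± 1.57 FPKM and Prcp from 9.70 ± 3.11 to 5.90 ± 1.89 FPKM, and both calls ended after rescaling. Ace, the target of Enalapril, was at 6.89 ± 0.731 FPKM in Vehicle and 6.77 ± 1.11 FPKM with the combination, a log2 fold change of -0.03 (SE 0.08, limma adjusted p = 0.76) that became 0.14 after rescaling. Agtr1a, the main angiotensin II receptor of rat kidney, was at 14.4 ± 1.88 and 15.9 ± 1.96 FPKM and was not called.

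The subunits of soluble guanylate cyclase did not move one way. Gucy1a1, the alpha-1 subunit, ranged over 8.87 to 19.6 FPKM (median 14.8) in Vehicle and 6.91 to 14.9 FPKM (median 8.99) with the combination, so the groups overlapped. Its log2 fold change of -0.60 (SE 0.12, limma adjusted p = 0.0005) passed as deposited but not after rescaling, where it was -0.43, and the call was lost in 11 of the 23 fits with an animal left out. Gucy1b1, the beta-1 subunit that carries the haem, had a log2 fold change of -0.45 (SE 0.10, limma adjusted p = 0.0014) and was not called. Gucy1b2, a beta-2 subunit, went from 7.40 ± 1.52 to 11.3 ± 1.87 FPKM and was called higher, with a log2 fold change of 0.62 (SE 0.11, limma adjusted p = 0.00015), a call that ended without Vehicle animal 1003 or without combination animal 4004. Guca2b, uroguanylin, which acts on the membrane guanylate cyclase, fell from 40.1 ± 13.3 to 19.6 ± 7.71 FPKM, a log2 fold change of -1.05 as deposited and -0.87 after rescaling. These 3 called genes were the calls among 24 tested genes of nitric oxide and cGMP signalling, whose median log2 fold change was -0.13 against -0.18 over all tested genes. The 2 of 24 that fell were close to the 6.39% of all tested genes, of which 0.994% rose.

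**Figure D2:**
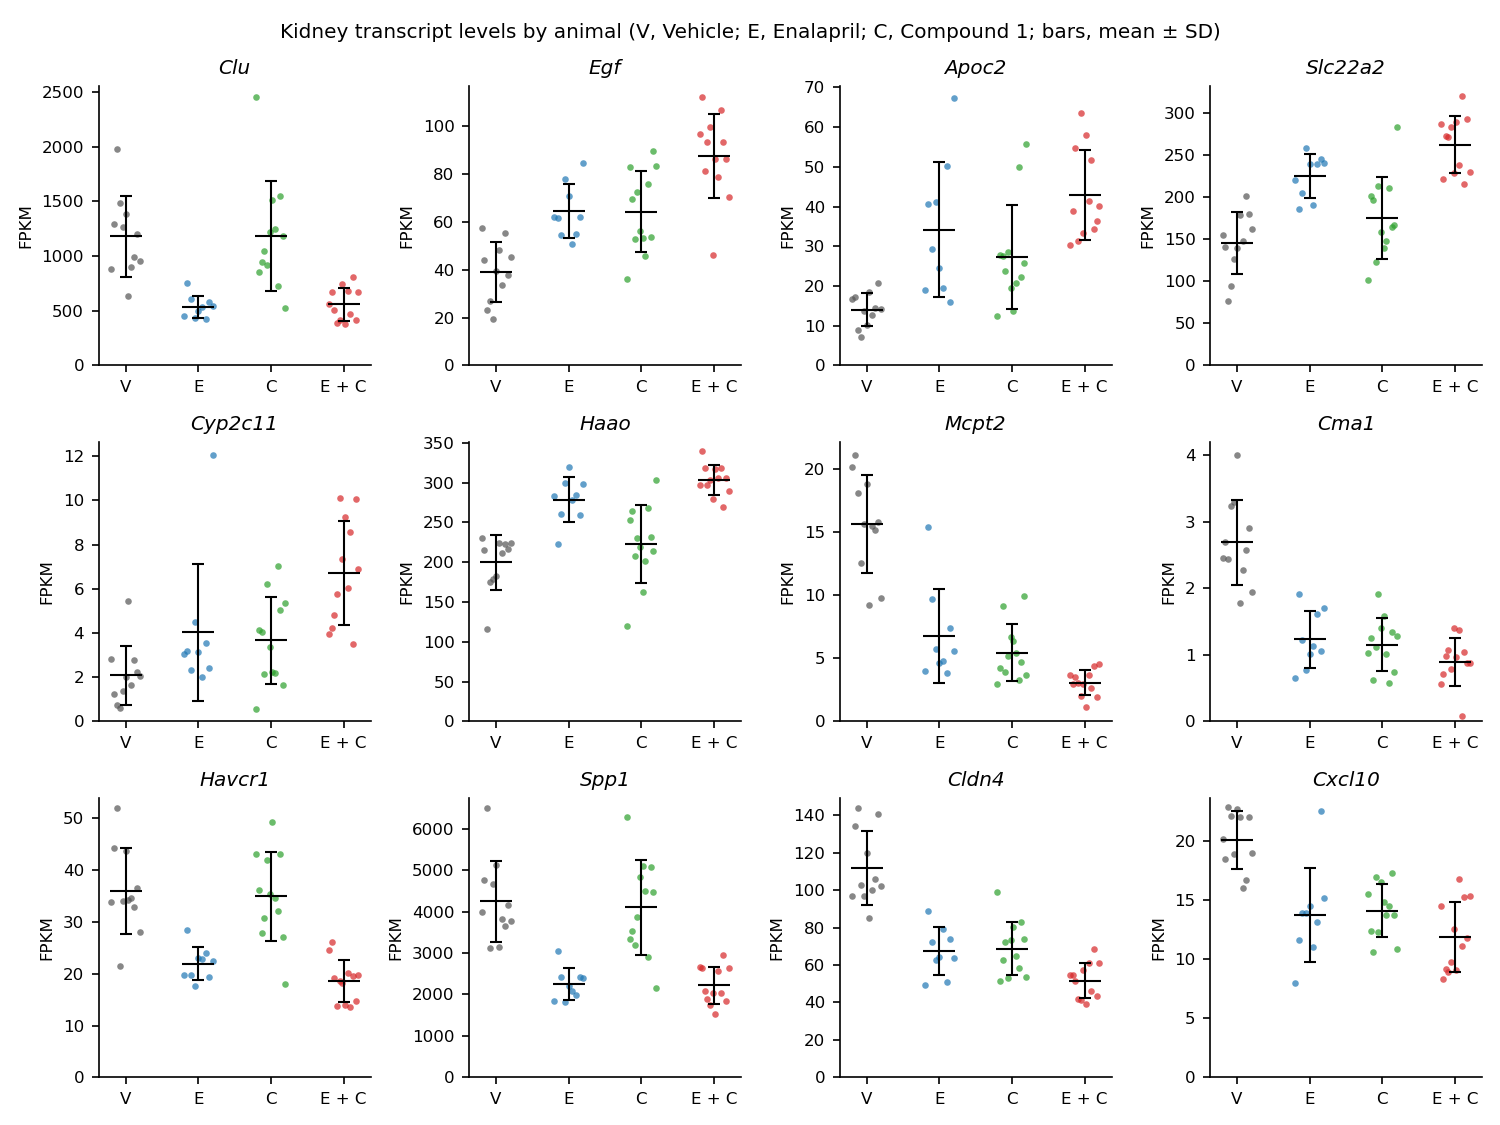
FPKM (y axis, from 0) of 12 genes in each animal given Vehicle (V, n = 11), Enalapril (E, n = 9), Compound 1 (C, n = 12) or the combination (E + C, n = 12), with bars for the mean ± SD. Spp1 lies at 1540 to 2963 FPKM with the combination against 3126 to 6490 FPKM in Vehicle, and the low point of the Compound 1 group in the Spp1 panel is animal 3011.

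Proteases of mast cells and basophils held the 2 largest falls, those of Mcpt8l2 and Mcpt2. These enzymes are stored in granules and released on degranulation. Mcpt2, a granule chymase of mucosal mast cells, ranged over 9.26 to 21.1 FPKM (median 15.6) in Vehicle and 1.18 to 4.54 FPKM (median 3.03) with the combination. No combination animal reached the lowest Vehicle animal, and the log2 fold change was -2.35 (SE 0.18, limma adjusted p = 4.5e-09), or -2.17 after rescaling. Cpa3, the mast cell carboxypeptidase, fell from a Vehicle range of 0.958 to 3.71 FPKM (median 2.47) to a combination range of 0.422 to 0.811 FPKM (median 0.588), again without overlap. Cma1 fell from a Vehicle range of 1.77 to 4.00 FPKM (median 2.57) to a combination range of 0.0766 to 1.40 FPKM (median 0.920), and its groups did not overlap either. The log2 fold changes were -1.87 (SE 0.17) for Cpa3 and -1.60 (SE 0.25) for Cma1. Mcpt8l2 and Mcpt8l3, related to a basophil protease, had log2 fold changes of -2.87 and -2.01. As members of one gene family these genes may share reads, so the split between them is uncertain, and Mcpt8l2 was listed at 0 in at least 1 combination animal, with a group mean of 0.403 ± 0.258 FPKM. Of 5 tested mast cell genes, 3 were called lower with both scalings, and the 12 listed mast cell genes summed to 27.1 to 45.2 FPKM in Vehicle and 14.0 to 23.9 FPKM with the combination.

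Other immune cell markers were lower as well. Of 20 tested macrophage and monocyte genes 11 fell, 4 of them also after rescaling, among them Cd14, a lipopolysaccharide coreceptor, from 15.3 ± 2.93 to 8.79 ± 1.64 FPKM, and Itgam, an integrin chain of myeloid cells, from 5.96 ± 1.11 to 3.40 ± 0.771 FPKM. The log2 fold change of Cd14 was -0.79 (SE 0.11, limma adjusted p = 1.4e-05). Fcgr1a, a high-affinity antibody receptor, and Aif1, a calcium-binding protein of macrophages, went from 20.6 ± 3.68 and 69.5 ± 12.8 FPKM to 12.6 ± 1.87 and 44.8 ± 5.96 FPKM, calls lost after rescaling. Without Vehicle animal 1003 the count was 6. The 21 listed macrophage genes summed to 1236 to 2464 FPKM in Vehicle and 854 to 1451 FPKM with the combination, and none of them was at 0 in all 44 animals. Of 19 T and B cell genes 13 fell, 4 of them with both scalings. Cd5, a T cell surface receptor, ranged over 2.90 to 5.64 FPKM (median 4.14) in Vehicle and 1.28 to 4.45 FPKM (median 2.27) with the combination, so that the groups overlapped, with a log2 fold change of -0.84. Lck, a kinase of the T cell receptor, went from 6.99 ± 1.10 to 4.27 ± 1.12 FPKM, a call lost after rescaling. Cd2, an adhesion receptor of T cells, fell from 6.65 ± 1.46 to 4.22 ± 1.01 FPKM, also as deposited only. Csf3r, the receptor for the granulocyte growth factor, was the 1 of 3 tested neutrophil genes that fell, from 1.71 ± 0.470 to 0.929 ± 0.214 FPKM. Its call was lost with a pseudocount of 1 and with quantile normalization.

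Many chemokines and cytokines were lower. Of 44 tested, 21 fell and 14 remained lower after rescaling, against 6.39% and 2.21% of all tested genes. The list's median log2 fold change was -0.59. As a share more fell as deposited among T and B cell genes (13 of 19) and tubular injury genes (17 of 27). Ccl20, which draws T cells and dendritic cells, ranged over 2.82 to 6.76 FPKM (median 5.04) in Vehicle and 1.91 to 4.09 FPKM (median 2.46) with the combination, a log2 fold change of -0.93 (SE 0.14, limma adjusted p = 3.5e-05). Clcf1, a ligand of the ciliary neurotrophic factor receptor, fell from 12.7 ± 2.62 to 7.01 ± 2.21 FPKM. Tnfsf10, the death receptor ligand TRAIL, fell from 23.1 ± 3.98 to 13.6 ± 2.21 FPKM as deposited only. Il19, a cytokine of the interleukin-10 family, fell from 4.73 ± 1.85 to 1.76 ± 0.775 FPKM, a log2 fold change of -1.41 (SE 0.23). Cntfr, which encodes the receptor that Clcf1 binds, went the other way, from 1.06 ± 0.488 to 2.22 ± 0.484 FPKM, a log2 fold change of 1.10 (SE 0.21). The macrophage and T and B cell marker levels given above moved with these genes, and their part in the result was not tested.

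Interferon-stimulated genes fell together as deposited, and fewer of them after rescaling. All 37 tested genes had a negative log2 fold change. Their median was -0.61, 21 were called lower, and 6 (Parp14, Isg20, Gbp2, Mx2, Rtp4 and Herc6) were called with both scalings. Without Vehicle animals 1003 and 1004 the count of 21 became 12. Parp14, an ADP-ribosyltransferase, ranged over 13.7 to 25.5 FPKM (median 17.4) in Vehicle and 7.62 to 13.02 FPKM (median 9.73) with the combination, and the groups did not overlap. Its log2 fold change was -0.79 (SE 0.10, limma adjusted p = 1.1e-05). Isg20, an RNA exonuclease, fell from 7.80 ± 1.38 to 4.05 ± 1.24 FPKM, and Cxcl10, an interferon-induced chemokine, from 20.1 ± 2.46 to 11.9 ± 2.95 FPKM. Irf1, a transcription factor of the interferon response, fell from 30.6 ± 5.24 to 19.2 ± 2.65 FPKM without overlap, a call lost after rescaling, as was that of Parp9, a partner of Parp14's family, with a log2 fold change of -0.74.

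Because these genes are known for a shared promoter element, the core of the interferon response element, 2 copies of GAAA with any 2 bases between, was searched for on both strands of RefSeq promoters of build GRCr8, each of 250 bases before and 50 after the gene's start. Of 15 lower interferon-stimulated genes with a promoter entry 9 held the element, as did 9 of the 13 that were tested and not called lower, against 3.77% of all 27457 promoters. These shares are 60% and 69.2%. It was also present in 4 of 16 lower chemokines and cytokines with an entry (Ccl19, Cxcl10, Il19 and Tnfsf13b), and in 0 of 18 that were tested and not lower. Over all matched promoters it was in 6.35% of the lower genes and 2.98% of the tested genes. The upstream 250 bases of 4 lower genes that hold it, all on the plus strand and chosen after their values were seen, are shown 5′ to 3′ with the matching letters in capitals; in Gbp2, a guanylate-binding GTPase, the match is on the opposite strand.
Parp14, chr11:78407884-78408133, match from base -76 to -67 before the start: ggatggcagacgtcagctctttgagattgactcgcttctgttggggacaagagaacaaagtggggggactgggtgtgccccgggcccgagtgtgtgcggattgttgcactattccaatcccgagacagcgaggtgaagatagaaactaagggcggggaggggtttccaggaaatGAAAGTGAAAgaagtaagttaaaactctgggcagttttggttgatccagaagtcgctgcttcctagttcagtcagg
Isg20, chr1:142239809-142240058, match from -92 to -83: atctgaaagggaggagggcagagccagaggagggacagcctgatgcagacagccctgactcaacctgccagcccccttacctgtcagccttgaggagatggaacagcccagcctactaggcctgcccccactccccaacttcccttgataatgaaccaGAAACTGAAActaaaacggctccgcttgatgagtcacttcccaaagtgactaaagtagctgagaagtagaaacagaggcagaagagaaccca
Gbp2, chr2:234005477-234005726, match from -31 to -22: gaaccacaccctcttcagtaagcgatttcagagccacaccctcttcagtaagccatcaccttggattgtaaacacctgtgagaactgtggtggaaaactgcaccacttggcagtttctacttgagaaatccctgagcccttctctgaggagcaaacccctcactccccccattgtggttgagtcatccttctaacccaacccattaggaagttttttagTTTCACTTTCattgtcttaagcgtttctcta
Cxcl10, chr14:15988816-15989065, match from -243 to -234: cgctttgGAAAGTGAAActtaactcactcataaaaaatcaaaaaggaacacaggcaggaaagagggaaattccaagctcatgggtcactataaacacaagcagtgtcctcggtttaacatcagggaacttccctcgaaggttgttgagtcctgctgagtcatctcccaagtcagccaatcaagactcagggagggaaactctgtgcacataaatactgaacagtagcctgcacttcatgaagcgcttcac
A match of letters is a description of the sequence and does not show that a factor was bound there.

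Antigen presentation genes were lower, while complement and coagulation genes were mixed. Of 21 tested antigen presentation genes 7 fell, among them RT1-DOa and RT1-DOb, chains of a class II molecule that modulates peptide loading, and Psmb8 and Psmb9, subunits of the immunoproteasome. RT1-DOa fell from 14.1 ± 2.77 to 7.85 ± 1.81 FPKM and was the 1 call that held after rescaling. Of 49 complement and coagulation genes, 37 had a negative log2 fold change, and after rescaling 3 were called higher and 4 lower. As deposited 13 fell (8 without Vehicle animal 1003) and Mbl1, a mannose-binding lectin, rose from 11.4 ± 2.63 to 19.2 ± 3.20 FPKM. Clu, the chaperone clusterin, one of the most abundant lower transcripts, ranged over 638 to 1980 FPKM (median 1199) in Vehicle and 381 to 809 FPKM (median 532) with the combination. Its log2 fold change was -1.06 (SE 0.16, limma adjusted p = 3.5e-05), or -0.89 after rescaling. Cfi, complement factor I, fell from 17.3 ± 3.30 to 8.99 ± 1.73 FPKM. Cfd, complement factor D, also an adipocyte product, fell from 8.99 ± 2.71 to 4.98 ± 1.93 FPKM. Of 11 tested adipocyte, adrenal, urothelial and red cell markers, Cfd fell and Cidec, a lipid droplet protein, rose from 16.4 ± 3.29 to 24.3 ± 2.29 FPKM, a call that ended in 10 of the 23 fits that left out 1 animal.

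Tubular injury genes, which damaged or repairing epithelium switches on, were mostly lower. Of 27 tested, 26 had a negative log2 fold change, 17 fell and 8 (Cd44, Tnfrsf12a, Anxa1, Spp1, Havcr1, Clu, Lcn2 and Krt19) were called with both scalings, and the median log2 fold change was -0.70 against -0.18 over all genes. Havcr1, kidney injury molecule-1, ranged over 21.5 to 51.9 FPKM (median 34.2) in Vehicle and 13.6 to 26.1 FPKM (median 18.9) with the combination. The 2 highest combination animals lay above the lowest Vehicle animal and below the other 10, and the log2 fold change was -0.95 (SE 0.13, limma adjusted p = 1.3e-05). Spp1, osteopontin, the most abundant of the lower genes named here, fell from a Vehicle range of 3126 to 6490 FPKM (median 3996) to a combination range of 1540 to 2963 FPKM (median 2058) without overlap. Lcn2, the siderophore-binding lipocalin used as an injury marker, fell from 141 ± 45.3 to 76.6 ± 21.3 FPKM, a log2 fold change of -0.86 (SE 0.16). Cd44, a hyaluronan receptor, and Tnfrsf12a, the receptor for TWEAK, fell without overlap, by log2 fold changes of -0.92 and -0.78. Anxa1 and Anxa2, phospholipid-binding annexins, fell to 84.6 ± 14.6 and 132 ± 20.7 FPKM from 169.6 ± 47.1 and 219.6 ± 37.2 FPKM, and the call of Anxa2 was lost after rescaling.

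Keratins and claudins, which build the epithelial cytoskeleton and tight junctions, shared the direction. Of 27 tested, 9 fell (Cldn3, Cldn4, Cldn6, Cldn7, Krt14, Krt15, Krt17, Krt18 and Krt19), and 5 of them were called after rescaling. Cldn4, a claudin of the collecting duct, ranged over 85.3 to 144 FPKM (median 103) in Vehicle and 39.0 to 68.7 FPKM (median 53.1) with the combination. The groups were apart, with a log2 fold change of -1.11 (SE 0.10, limma adjusted p = 8.2e-08). Cldn3 and Cldn7 fell from 44.1 ± 7.44 and 43.4 ± 8.60 FPKM to 26.6 ± 5.12 and 25.8 ± 3.85 FPKM, and Krt18 from 35.7 ± 7.27 to 21.8 ± 3.98 FPKM, calls that ended after rescaling.

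Genes of the proximal tubule, the segment that reclaims most of the filtrate, went the other way. Of 33 tested, 30 had a positive log2 fold change and the median was 0.33. Called higher were 6 genes, or 11 after rescaling, and the 33 genes summed to 7605 to 13925 FPKM in Vehicle and 12849 to 16967 FPKM with the combination. Slc22a2, the basolateral organic cation transporter, ranged over 76.1 to 201 FPKM (median 148) in Vehicle and 215 to 319 FPKM (median 272) with the combination, with no overlap and a log2 fold change of 0.88 (SE 0.12, limma adjusted p = 1.8e-05). Kap, an abundant androgen-regulated secretory protein of the proximal tubule, rose from 1641 ± 494 to 2618 ± 267 FPKM, and Slc9a3, the apical sodium-proton exchanger, from 13.3 ± 2.31 to 20.3 ± 4.30 FPKM, a call lost in 5 of the 23 fits with an animal left out and with a pseudocount of 1. Slc22a7, an organic anion transporter, Pck1, the gluconeogenic carboxykinase, whose call ended in 10 of the 23 fits that left out 1 animal, and Slc7a13, an amino acid transporter, were the other calls. Without Vehicle animals 1003 and 1004, 3 genes were called higher. Mitochondrial share, given above, was also higher in the combination group. A further fit left out mitochondrial transcripts and scaled each library to the total of the others. In it Slc22a2, Kap, Slc9a3, Slc22a7 and Pck1 were still called higher. That scaling raised the combination relative to Vehicle, and the genes called higher went from 134 to 175. Genes already called higher could therefore hardly lose their calls in this fit. How much of the rise went with the mitochondrial share was not tested.

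In the distal nephron few genes were called as deposited. Egf, the epidermal growth factor precursor made by the thick ascending limb and distal convoluted tubule, ranged over 19.3 to 57.5 FPKM (median 39.3) in Vehicle and 46.0 to 112 FPKM (median 89.8) with the combination. All but the lowest combination animal lay above the highest Vehicle animal, and the log2 fold change was 1.20 (SE 0.16, limma adjusted p = 1.5e-05), or 1.38 after rescaling. As deposited, Egf was the 1 called gene among 16 of the thick ascending limb (3 were higher after rescaling) and among 41 growth factors and receptors of the EGF, FGF and IGF families. Of 20 genes of the distal convoluted tubule and calcium transport, 2 rose and 3 fell, against 4 and 2 after rescaling. Trpv6, an apical calcium channel, fell from a Vehicle range of 2.46 to 10.9 FPKM (median 4.46) to a combination range of 0.860 to 3.85 FPKM (median 1.35), with overlap, a log2 fold change of -1.50 (SE 0.27, limma adjusted p = 0.00018). Trpv5, its close relative, fell from 9.27 ± 2.88 to 5.45 ± 1.20 FPKM, a call lost after rescaling. Both enzymes that set the level of active vitamin D moved, in opposite directions. Cyp27b1, which makes it, fell from 3.57 ± 1.43 to 1.24 ± 0.590 FPKM, and Cyp24a1, which breaks it down, rose from 51.3 ± 11.6 to 92.0 ± 23.5 FPKM. Their log2 fold changes were -1.47 (SE 0.25) and 0.83 (SE 0.14).

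Several cell types of the kidney gave no called gene in limma. Of 15 podocyte genes none passed, with 8 at an unadjusted p under 0.05, 1 higher and 7 lower. That share was close to the 7205 of 13482 tested genes at that level, and 77.6% of all tested genes had a negative log2 fold change. Of 17 intercalated cell genes none passed, with 6 higher and 3 lower at an unadjusted p under 0.05, and of 17 smooth muscle and pericyte genes none passed, with 4 lower. The 5 tested markers of the inner medulla gave none, with 1 higher and 1 lower at that level. The Wilcoxon rank-sum test called none in these 4 groups either. The mean of the inner medulla markers was 4.35 ± 0.22 log2(FPKM + 0.1) in Vehicle and 4.31 ± 0.17 with the combination. Of 20 endothelial genes Aplnr, the apelin receptor, fell from 3.92 ± 0.693 to 2.53 ± 0.528 FPKM, a call lost after rescaling. This 1 of 20 was close to the 6.39% of all tested genes that fell.

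Matrix genes were lower in part. Of 30 tested collagen chains 8 fell, 5 of them after rescaling, and 12 of 62 matrix glycoproteins and remodelling genes fell, 7 after rescaling. Col3a1, the fibrillar collagen III chain, ranged over 74.1 to 148 FPKM (median 99.2) in Vehicle and 46.5 to 83.7 FPKM (median 55.3) with the combination. The groups overlapped and the log2 fold change was -0.78 (SE 0.12, limma adjusted p = 4.9e-05). Col15a1, a basement membrane collagen, and Col24a1, a minor fibrillar collagen, had log2 fold changes of -0.78 and -1.08. Adamts1, a secreted metalloprotease that cleaves proteoglycans, fell from a Vehicle range of 46.2 to 95.6 FPKM (median 59.3) to a combination range of 22.1 to 45.1 FPKM (median 27.6) without overlap, a log2 fold change of -1.07 (SE 0.12, limma adjusted p = 3.1e-06). Fbln1, a fibulin, and Bmp1, the procollagen protease, fell by log2 fold changes of -0.77 and -0.61 as deposited only. Col6a5, a collagen VI chain, fell from 1.51 ± 0.262 to 0.808 ± 0.237 FPKM, a call lost with a pseudocount of 1 and with quantile normalization. Lamb3, a laminin chain, fell from 10.3 ± 3.55 to 5.11 ± 1.17 FPKM. Matn1, a matrilin of cartilage matrix, was the 1 matrix gene that rose, from 3.29 ± 1.00 to 6.10 ± 1.83 FPKM. Among 34 genes of fibroblasts and TGF-beta signalling, Inhbb, an activin subunit, fell from 4.91 ± 1.12 to 2.83 ± 0.550 FPKM and lost its call after rescaling. This 1 of 34 was below the 6.39% of all tested genes that fell.

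Genes of cell division fell as deposited only. Of 31 tested 9 fell, among them Cdk1, the mitotic kinase, from 4.64 ± 1.56 to 2.78 ± 0.644 FPKM, and Top2a, a topoisomerase of dividing cells, from 1.80 ± 0.641 to 1.02 ± 0.202 FPKM. Mcm3 and Mcm4, subunits of the replicative helicase, fell by log2 fold changes of -0.67 and -0.61. None of the 9 was called after rescaling or with a pseudocount of 1, and 3 were called without Vehicle animal 1003. Of 24 immediate early genes 5 fell, with Fosl1 and Atf3, stress-induced transcription factors, called with both scalings. Fosl1 fell from 1.76 ± 0.637 to 0.725 ± 0.292 FPKM and Atf3 from 17.6 ± 7.44 to 9.25 ± 3.56 FPKM. Of 19 clock genes Usp2, a deubiquitinase with a daily rhythm, and Hlf, a clock output factor, rose, by log2 fold changes of 0.87 and 0.73, the latter lost without Vehicle animals 1003 and 1004. Ier3 and Klf6, also immediate early genes, fell, with log2 fold changes of -0.68 and -0.70, as deposited only. Tbxas1, thromboxane synthase, fell from 8.31 ± 1.74 to 4.75 ± 0.755 FPKM without overlap, and Ramp1, a subunit of the CGRP receptor, from 10.1 ± 2.19 to 6.24 ± 1.59 FPKM as deposited only. Of 37 genes of the unfolded protein and heat shock response, 2 fell, close to the 6.39% of all tested genes. They were Trib3 and Chac1, targets of the integrated stress response, with log2 fold changes of -0.85 and -0.79. Both calls were lost with a pseudocount of 1 and with quantile normalization.

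Metabolic genes typical of the proximal tubule were higher, most plainly those of amino acid breakdown. Of 40 tested, 37 had a positive log2 fold change, 5 were called higher as deposited and 16 after rescaling. Haao, a kynurenine pathway dioxygenase, ranged over 116 to 231 FPKM (median 216) in Vehicle and 269 to 339.8 FPKM (median 305) with the combination, without overlap. Its log2 fold change was 0.62 (SE 0.08, limma adjusted p = 1.5e-05), a call lost without Vehicle animal 1003. Kmo, the kynurenine hydroxylase, rose from 36.4 ± 6.65 to 54.8 ± 5.79 FPKM, and Aadat, a kynurenine aminotransferase, from 305 ± 88.6 to 448 ± 80.8 FPKM, calls lost in 4 and 11 of the 23 fits with an animal left out. Ddc, the aromatic amino acid decarboxylase that makes dopamine in the proximal tubule, rose from 12.7 ± 2.65 to 20.1 ± 2.92 FPKM. The count of 5 rested on single animals: it was 1 without Vehicle animal 1003, 2 without Vehicle animal 1004 or 1006, and 3 without combination animal 4008 or 4012. With the inner medulla markers as a covariate it was 2. The summed level of the proximal tubule markers, given above, moved with these genes, and its part in the result was not tested.

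Lipid, sugar and detoxifying genes added single rises. Apoc2, the apolipoprotein that activates lipoprotein lipase, ranged over 7.18 to 20.8 FPKM (median 14.1) in Vehicle and 30.4 to 63.5 FPKM (median 39.5) with the combination. It rose 3.08-fold without overlap, a log2 fold change of 1.62 (SE 0.16, limma adjusted p = 3.4e-07). Cyp2c11, a male-specific cytochrome P450 of rat liver, rose from a Vehicle range of 0.628 to 5.44 FPKM (median 1.99) to a combination range of 3.52 to 10.1 FPKM (median 6.46), with overlap. Cyp2d5, another P450, rose from 41.8 ± 10.5 to 68.1 ± 9.29 FPKM, and Cyp1b1, a P450 of steroid and xenobiotic metabolism, fell from 5.47 ± 1.19 to 3.06 ± 0.679 FPKM. Rbp4, the retinol carrier of plasma, and Slc10a1, a bile acid transporter, rose by log2 fold changes of 0.67 and 0.79, while Pltp, the phospholipid transfer protein, changed by -0.60 as deposited only. The call of Rbp4 was lost without Vehicle animal 1003, without Vehicle animal 1004 and with sample weights. Acot12, an acetyl-CoA hydrolase, rose from 1.60 ± 0.597 to 3.99 ± 0.919 FPKM, and Ppara, the nuclear receptor of fatty acid oxidation, from 4.20 ± 0.624 to 6.64 ± 1.36 FPKM. They were the 2 called of 52 genes of fatty acid oxidation and ketogenesis. Acss2, the cytosolic acetyl-CoA synthetase, rose from 83.7 ± 18.2 to 135 ± 15.8 FPKM without overlap, and Pklr, pyruvate kinase of liver and proximal tubule, from 41.3 ± 8.94 to 61.7 ± 7.91 FPKM, the call of Pklr being lost in 4 of the 23 fits with an animal left out. Slc2a5, the fructose transporter, and Pgam2, a phosphoglycerate mutase, rose by log2 fold changes of 0.88 and 0.86. The 4 called higher of 31 genes of glycolysis and gluconeogenesis became 2 without Vehicle animal 1003, Vehicle animal 1006 or combination animal 4006. Of 37 genes of glutathione and NRF2, 1 rose and 3 fell as deposited, against 7 and 1 after rescaling. Over all tested genes 0.994% rose and 6.39% fell as deposited, and 2.59% and 2.21% after rescaling. The shares of this list that fell were close to those of all tested genes. Gclc, the rate-limiting glutamate-cysteine ligase subunit, rose from 349 ± 105 to 572 ± 101 FPKM, while Gpx2, a glutathione peroxidase of epithelia, fell from 63.0 ± 10.2 to 33.8 ± 9.45 FPKM without overlap. Hmox1, haem oxygenase, and Cbr1, a carbonyl reductase, fell by log2 fold changes of -0.65 and -0.64 as deposited only. Gsta2, a glutathione transferase, went from 67.1 ± 20.4 to 98.5 ± 19.8 FPKM, the 1 call of 28 conjugating enzymes as deposited, lost in 8 of the 23 fits with an animal left out. After rescaling 7 conjugating enzymes were called higher.

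Oxidative phosphorylation moved evenly and by little. All 45 tested nuclear-encoded genes had a positive log2 fold change, with a median of 0.20 against -0.18 over all genes. No gene passed the fold threshold in limma or the Wilcoxon rank-sum test, and 33 had an unadjusted p under 0.05, each with a positive change. Of 13 mitochondrially encoded genes 12 had a positive log2 fold change, with a median of 0.30. None of them was called by limma or the Wilcoxon rank-sum test, with 7 at an unadjusted p under 0.05. Over all tested genes 7205 of 13482 were at that level.

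**Figure D3:**
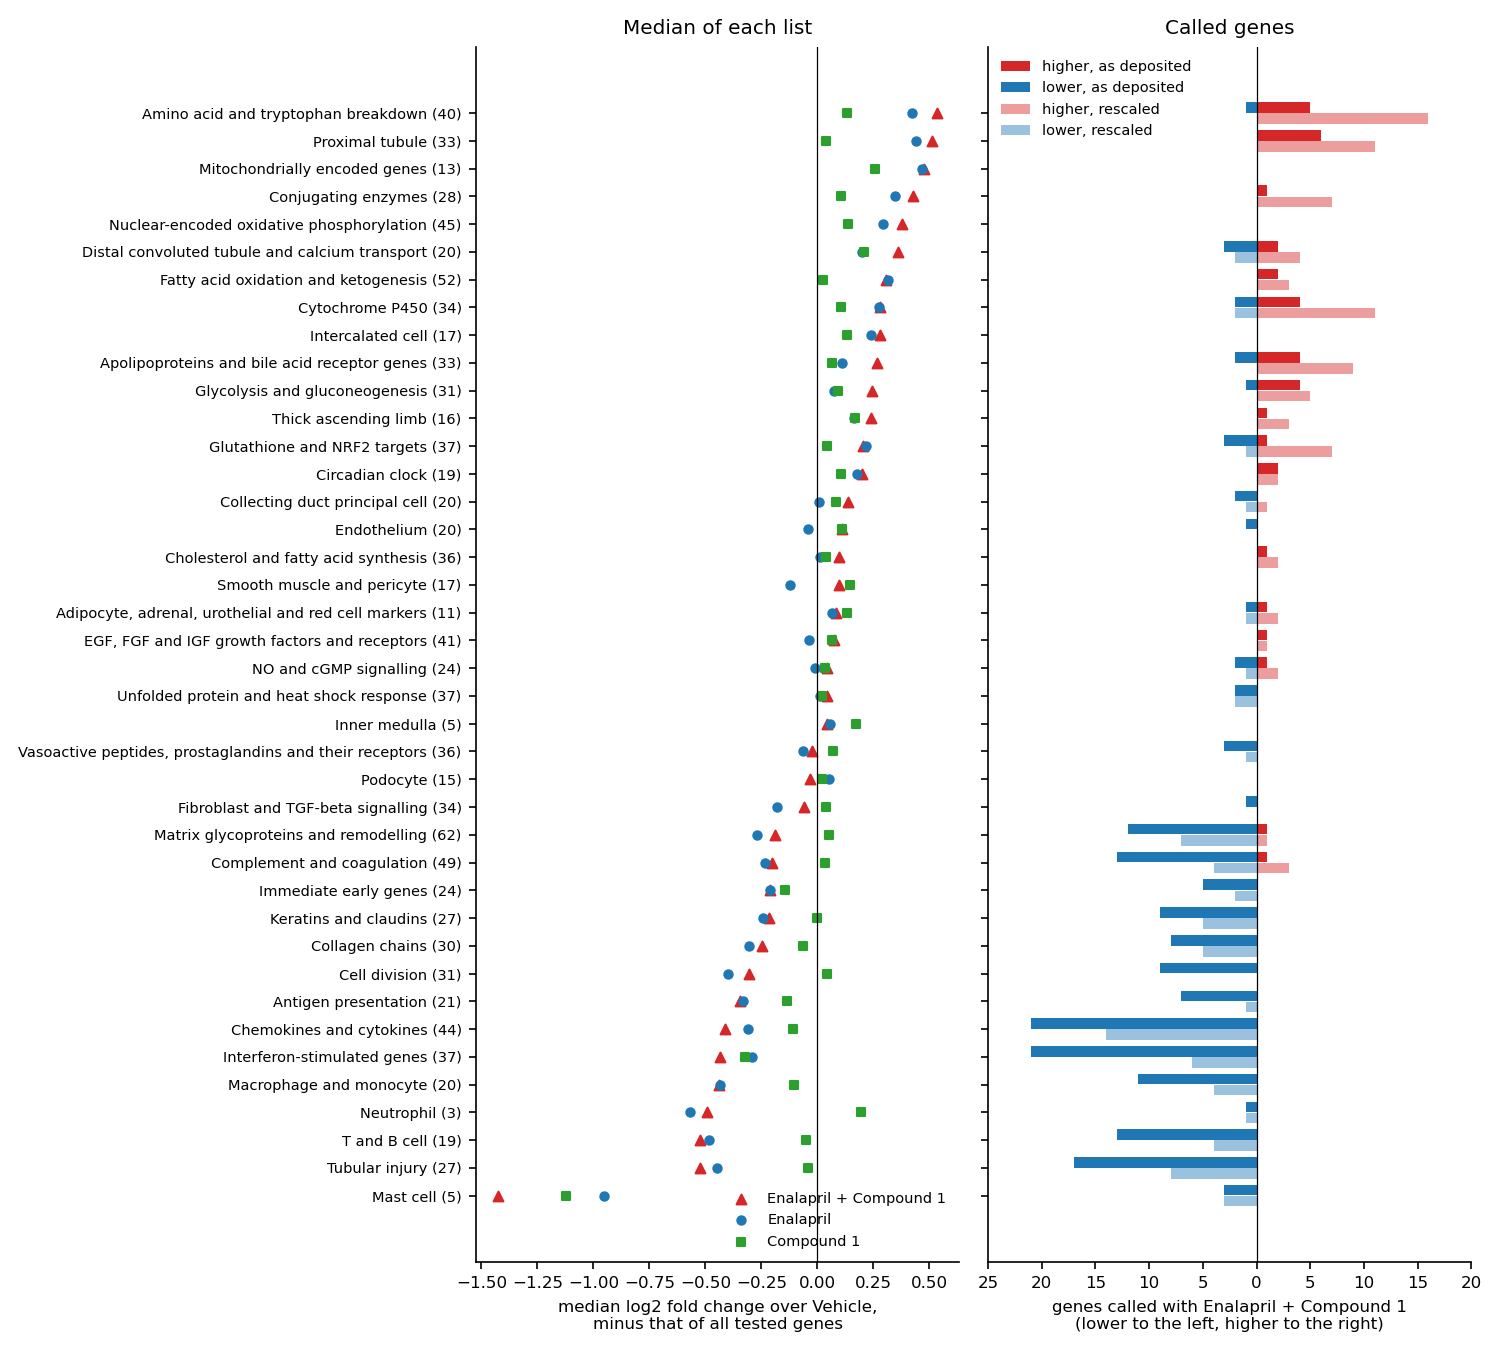
Gene lists with the number of tested genes in brackets (y axis). Left, each list's median log2 fold change over Vehicle, relative to the median of all tested genes (x axis), with the combination, Enalapril and Compound 1, treatments that share the Vehicle animals (Compound 1 includes animal 3011); right, genes called higher (red) and lower (blue) with the combination, as deposited (dark) and rescaled (pale). Mast cell genes lie lowest with the combination, at -1.43, and amino acid breakdown highest, at 0.54.

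The lists also differed in how far they moved in single animals. The mean deviation of the 27 tubular injury genes from their Vehicle mean ran from -0.32 to 0.45 log2 units in Vehicle animals and from -0.88 to -0.36 in combination animals. For the 44 chemokines and cytokines it ran from -0.21 to 0.36 and from -0.81 to -0.33. For the 33 proximal tubule genes it ran from -0.44 to 0.21 and from 0.08 to 0.49. Injury and cytokine genes were thus apart in all animals as deposited, while the ranges of proximal tubule genes overlapped. After rescaling the cytokine genes were still apart, with the lowest Vehicle animal at -0.15 and the highest combination animal at -0.22, and the injury genes overlapped, at -0.26 and -0.10. The 30 collagen chains ran from -0.20 to 0.22 in Vehicle and from -0.67 to 0.15 with the combination, so the ranges overlapped.

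**Figure D4:**
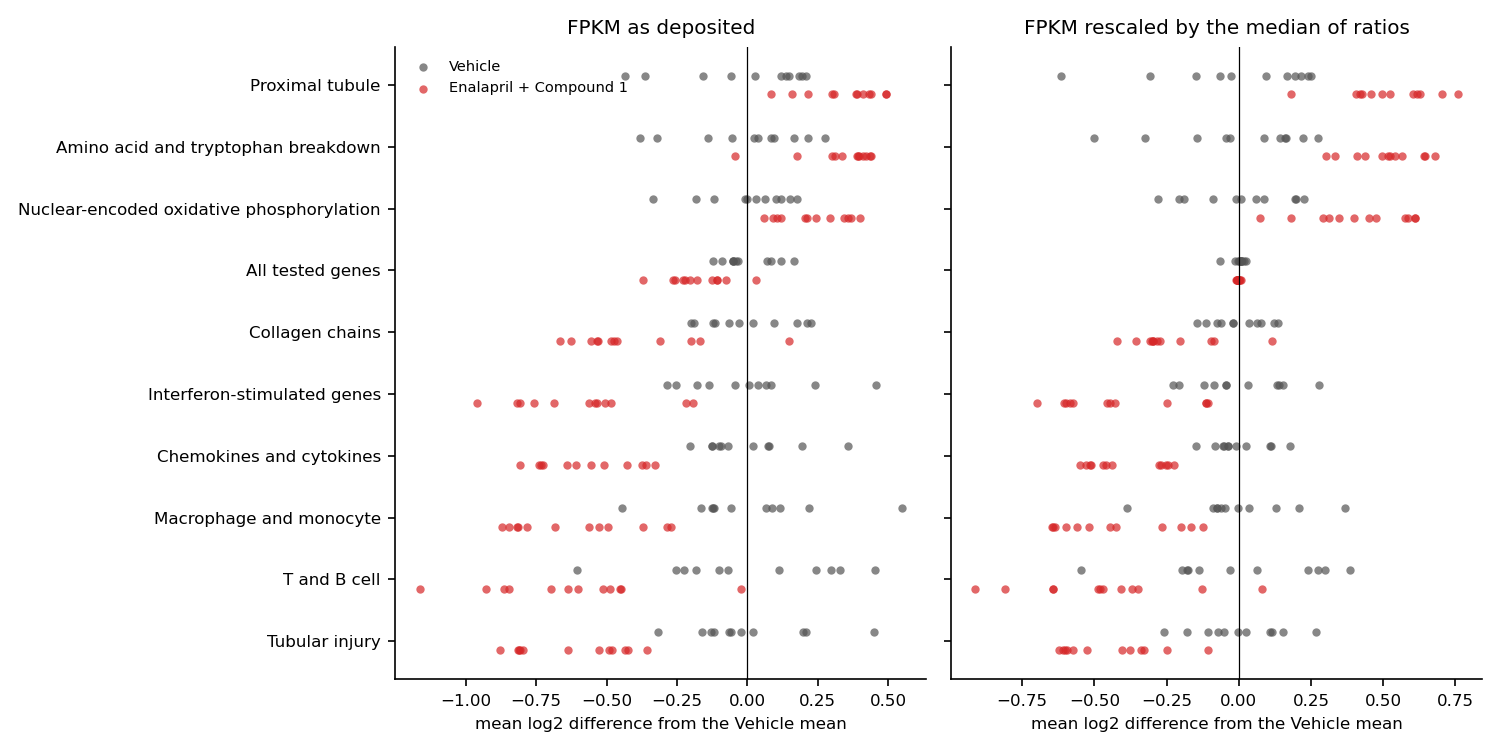
Mean log2 difference from the Vehicle mean (x axis) over the tested genes of each list (y axis), 1 point per animal, for 11 Vehicle animals (grey) and 12 combination animals (red), as deposited (left) and rescaled by the median of ratios (right). All tested genes spread from -0.37 to 0.03 with the combination on the left and collapse to about 0 on the right, while tubular injury, cytokine and proximal tubule genes keep their direction.

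The remaining genes of largest change belonged to no single list. Reg3b and Reg3g, secreted antibacterial lectins of one family that may share reads, fell by log2 fold changes of -1.53 and -1.77. Nptxr, a pentraxin receptor known from neurons, fell from 6.11 ± 1.85 to 2.44 ± 0.719 FPKM. Ms4a6bl varied most within its groups, over 0.858 to 13.3 FPKM (median 6.99) in Vehicle and up to 4.79 FPKM with the combination, and its SE of 0.63 was the widest of the genes named. Cacng5, an auxiliary subunit of glutamate receptors, rose from 10.8 ± 4.77 to 26.8 ± 6.18 FPKM, and Slco1a1, an organic anion transporter, from 9.29 ± 4.37 to 17.2 ± 3.94 FPKM. Gcm1, a transcription factor of placenta and kidney, rose from a Vehicle range of 0.387 to 2.34 FPKM (median 1.51) to a combination range of 2.69 to 4.11 FPKM (median 3.22) without overlap. Mlc1, Ceacam20 and Tmem236 rose by log2 fold changes of 1.34, 1.09 and 1.03, and Tff3, a trefoil peptide, one of the most abundant higher genes, went from 440.2 ± 107 to 651 ± 73.2 FPKM, a call lost in 5 of the 23 fits with an animal left out.

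The levels with each drug alone are given beside those with the combination. The 3 treatments share the 11 Vehicle animals, so their fold changes are not independent. Egf was at 64.5 ± 11.3 FPKM with Enalapril and 64.3 ± 16.9 FPKM with Compound 1, with log2 fold changes of 0.77 and 0.74 beside 1.20 for the combination. Mcpt2 was at 6.77 ± 3.72 and 5.45 ± 2.23 FPKM, with log2 fold changes of -1.29 and -1.55 beside -2.35. Clu was at 535 ± 104 FPKM with Enalapril and 1182 ± 501 FPKM with Compound 1, beside 558 ± 149 FPKM with the combination. Without 3011 the Compound 1 means were 62.6 FPKM for Egf, 5.61 FPKM for Mcpt2 and 1242 FPKM for Clu, and the log2 fold changes were 0.70 for Egf and -1.51 for Mcpt2.

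**Figure D5:**
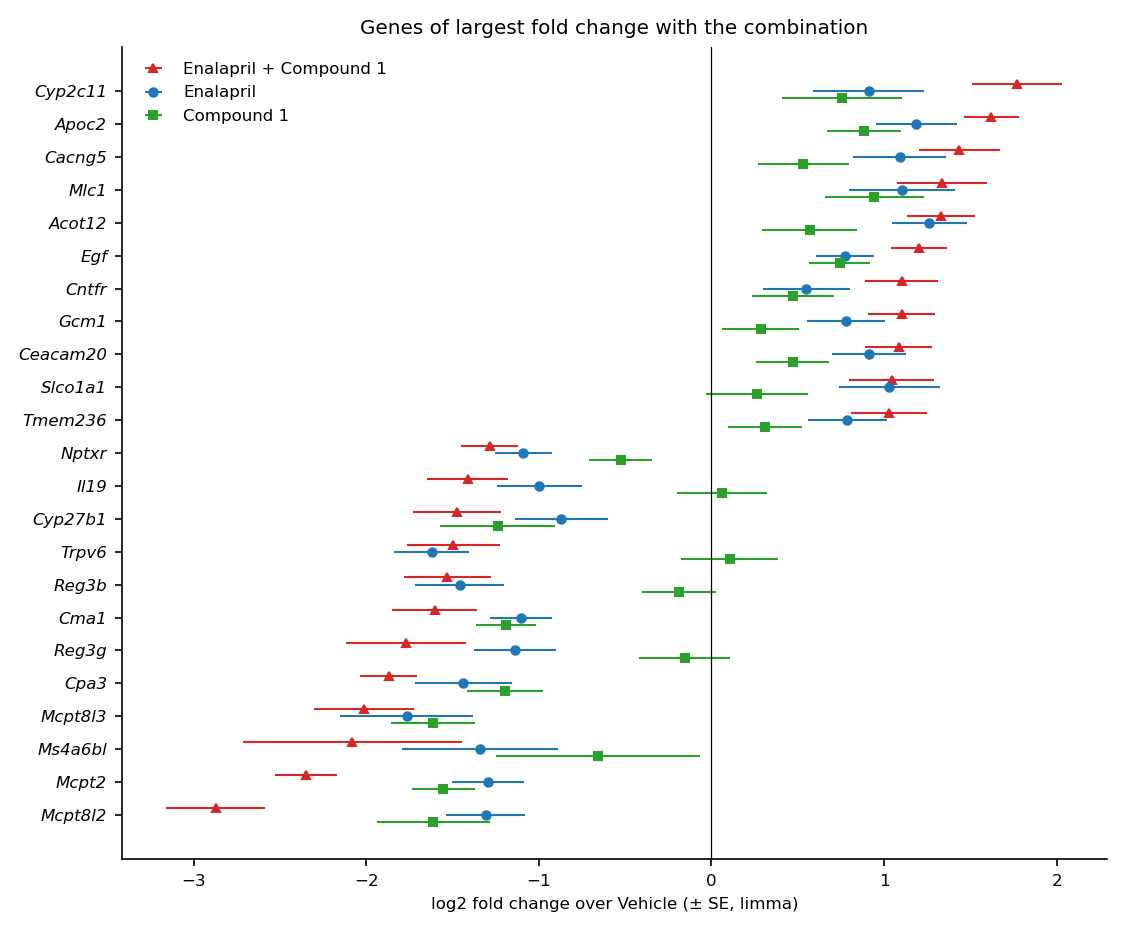
Log2 fold change over Vehicle (x axis, ± SE from limma) for the 11 higher and 12 lower named genes of largest change with the combination (y axis), with the combination (red triangles), Enalapril (blue circles) and Compound 1 (green squares). Apoc2 lies at 1.62, 1.19 and 0.88, and Trpv6 at -1.50, -1.62 and 0.11; Compound 1 includes animal 3011, without which its values were 0.78 and 0.28.

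Against Enalapril alone, in a fit of all 4 groups, 1 gene was called, 0.00742% of those tested, and leaving out single animals gave 0 to 8. It was Mcpt2, which differed from Enalapril by -1.06 log2 units (SE 0.22, limma adjusted p = 0.046). The call held in 13 of 44 fits that each left out 1 animal, and without Enalapril animal 2103 the adjusted p was 0.22. At an unadjusted p under 0.05 there were 548 higher and 853 lower genes, and 4 genes were called after rescaling. For Egf the difference from Enalapril was 0.43 log2 units (SE 0.16, limma adjusted p = 0.33) and did not pass.

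Against Compound 1 alone, 37 genes were higher (0.274%) and 277 lower (2.05%), and without animal 3011 the counts were 53 and 390. After rescaling they were 96 and 141, and 140 and 184 without 3011. The dose of Compound 1 differed between these groups, so dose and the added Enalapril cannot be told apart. Havcr1 was at 34.9 ± 8.60 FPKM with Compound 1 and 18.5 ± 4.06 FPKM with the combination, a difference of -0.90 log2 units (SE 0.13), or -0.98 without 3011. Spp1 differed by -0.86 log2 units, or -0.94 without 3011, and Lrat, which esterifies retinol for storage, by -1.20, or -1.27 without 3011. Animal 3011 was singled out by its low Havcr1 and Spp1, so larger differences of these genes without it were fixed by that choice. Cfi, Tubb2b (a beta-tubulin) and Tpm1 (a tropomyosin) were lower as well, with differences of -0.85, -0.62 and -0.63. Without 3011 these were -0.91, -0.64 and -0.69.

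The interaction of Enalapril and Compound 1, the combination's change minus the sum of both single changes, passed for 1 gene, 0.00742% of those tested. Compound 1 alone was given at a higher later dose than in the combination, so an interaction and that difference in dose cannot be told apart. Kcne1, a potassium channel subunit, was at 4.56 ± 1.09 FPKM in Vehicle and 4.11 ± 0.781 FPKM with the combination, while Enalapril gave 2.94 ± 0.975 and Compound 1 2.78 ± 0.739 FPKM. Both single treatments lay below Vehicle and the combination near it, with an interaction of 1.21 log2 units (SE 0.23, limma adjusted p = 0.034). Without animal 3011 it was 1.25 (limma adjusted p = 0.023). The call held in 24 of 44 fits that each left out 1 animal and ended after rescaling.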

How the data were processed

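RNA was taken from snap-frozen right kidney of each rat, and the libraries were stranded mRNA libraries. The deposited values are FPKM, which the authors computed per gene on the rat build rn6; which aligner and counter were used was not given in the sources used here. FPKM hold no counts, so the authors' count test was not repeated, depth is unknown, and a library rich in a few abundant transcripts has lower FPKM for all others. Entries with FPKM above 1 in at least 9 of 44 animals were tested on log2(FPKM + 0.1), a scale that understates changes of low genes, with limma 3.58.1 (trend) in R 4.3.3 and Benjamini-Hochberg adjustment over 13482 entries. Contrasts with single treatments and the interaction used 1 fit of all 4 groups. P-values measure the spread between animals. The procedure was checked on simulated data with known fold changes.

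Rescaling divided each animal by its median ratio to the geometric means. Named genes were the 12 higher and 12 lower of largest change called with both scalings (mean FPKM of at least 2), up to 4 called per list by smallest p, the 5 most abundant called each way, the drugs' pathway genes, and up to 8 per contrast with a single treatment; entries without a gene symbol were passed over, and some genes the rule names are not reported here. Prcp, Trpv5, Matn1, Gbp2, Atp6v1b1 and further members spelled out for list counts were named after their values were seen. The gene lists and the promoter motif were chosen with earlier results of these data known. Promoters are from RefSeq, build GRCr8, and 9745 tested symbols matched an entry; they were matched by symbol only, as the values are on another build. Alternatives covered the pseudocount, filter, scaling, weights, covariate, tool and left-out animals.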

Additional observations from a re-analysis of the deposited data

Results flagged for a closer look

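The interaction of Enalapril and Compound 1 for Kcne1 was 1.21 on the log2 scale, which passed its test (limma adjusted p = 0.034). The dose of Compound 1 differed between the combination and Compound 1 alone and cannot be told apart from the interaction. Among the 46 genes examined in the 9 Enalapril animals, single animals lay far from the others for 8 genes. The cutoff flags about 1 in 20 independent groups of normally distributed values. FPKM need not be normally distributed and the 46 genes come from the same 9 animals, so that rate may not hold here. Animal 2012 had Cacng5 at 38.6, Ceacam20 at 11.7 and Cyp2c11 at 12.1 FPKM. Animal 2103 had Mcpt2 at 15.4, Mcpt8l3 at 3.48 and Spp1 at 3059 FPKM. Animal 2007 had Cntfr at 0.697 FPKM, and animal 2005 had Kcne1 at 5.06 FPKM. None of these animals enters the comparison of the combination with Vehicle.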

How the results depend on the processing

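The 995 calls against Vehicle became 440 (84 higher, 356 lower) with a pseudocount of 1, 478 (89 and 389) with FPKM above 5, 647 (349 and 298) with median-of-ratios scaling, 547 (324 and 223) with quantile normalization and 6153 (860 and 5293) with no fold threshold. The fit without mitochondrial transcripts gave 854 calls (175 higher, 679 lower). Without Vehicle animals 1003 and 1004, an alternative chosen after seeing the data, 66 genes were higher. Leaving out 1 animal at a time gave 762 to 1194 calls, 91 to 168 higher and 671 to 1055 lower. Against Enalapril, rescaling gave 4 calls and leaving out animals 0 to 8. Against Compound 1, leaving out animals gave 210 to 443 calls, the highest without animal 3011; these fits were also chosen after seeing the data. The interaction gave 0 calls after rescaling and 0 to 2 with animals left out. Ace changed sign, to 0.14 rescaled, 0.18 with quantile normalization, 0.010 without mitochondrial transcripts and 0.0062 without Vehicle animals 1003 and 1004, as did Kcne1 against Vehicle, to 0.038 rescaled and 0.10 with quantile normalization; neither was called and the cause was not tested. Of 120 named genes called, 95 kept the call in all 23 fits with 1 animal left out, 86 kept it after rescaling, and none reversed. Genes named for largest change or abundance were chosen among those called with both scalings. Their part of the 86 was therefore fixed by that choice. Over all 995 calls, 432 were made with both scalings. Rescaling moved fold changes upwards, so it could hardly end the calls of higher genes. No paired analysis was possible because the groups share no animal numbers. Absolute depth is unknown, so precision at low FPKM cannot be stated.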
